A study of Mus musculus with 217 samples.

Results

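The genes described here are 10 genes of the unfolded protein response, the programme that cells run when proteins fail to fold in the endoplasmic reticulum (ER), and they were taken by symbol from a table of 53619 genes. Each of the 10 symbols matched 1 row. Atf4, Ddit3 and Xbp1 encode transcription factors, Hspa5, Hsp90b1, Dnajb9 and Calr encode chaperones or their partners, Pdia4 and Pdia6 encode disulfide isomerases, and Herpud1 encodes a membrane protein of the pathway that sends misfolded proteins to the proteasome.

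Sensors in the ER membrane, IRE1, ATF6 and PERK, start the response. IRE1 splices the Xbp1 mRNA, so that it encodes an active factor that switches on chaperone and degradation genes, and ATF6 is cut to release a factor that works on the same genes. PERK slows translation and raises ATF4 protein, which drives Ddit3, the factor also called CHOP that can turn the response towards cell death. Much of this control acts on splicing and translation, and counts per gene measure neither spliced Xbp1 nor ATF4 protein. In the ovary, granulosa cells surround the oocyte and make steroids, and secretory work of this kind is done in the ER, while oocytes store calcium in it.

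Ovaries of mice labelled Tet2 knockout or wild type, at 2, 6 and 10 months of age, gave RNA-seq libraries made with the Smart-seq2 method, either from a pool of granulosa cells or from a single metaphase II oocyte. The granulosa pools number 3 in each of 6 groups. These are 10-month knockout-labelled mice on resveratrol, 10-month knockout-labelled controls and 2-month knockout-labelled mice, and then 10-month wild-type mice on resveratrol, 10-month wild-type controls and 2-month wild-type mice. The 171 oocytes fall into 10 groups: 15 knockout and 18 wild-type oocytes at 2 months, 20 knockout and 14 wild-type on resveratrol at 6 months, 20 and 20 in the controls of that age, 15 and 14 on resveratrol at 10 months, and 15 and 20 in the controls of that age, each pair with the knockout count before the wild-type count. All of these mice are labelled with the strain background C57BL6/129. On plot axes Y, M and O stand for 2, 6 and 10 months, KO (red) and WT (blue) for the genotype label, and R and C for resveratrol and control. A further 28 oocytes come from mice labelled C57BL6, of which 10 are from 10-month mice on resveratrol, 6 from 10-month controls and 11 from 6-month controls; the labels of 1 more contradict each other on treatment, and it enters no group. The genotype tag of the 18 wild-type oocytes at 2 months reads knockout, against their titles and the design text, which were followed here. Resveratrol, a plant polyphenol, was given at 30 mg per litre of drinking water with 500 µl of DMSO, which the controls drank alone, from 2 months of age. The labels give no DMSO for the 2-month groups. In every comparison with 2 months, age therefore goes together with DMSO, and these cannot be told apart. All females received PMSG, a gonadotrophin that makes follicles grow; granulosa cells were taken from punctured follicles before any hCG, and oocytes from the oviduct after hCG, with the cumulus cells removed. Neither pools nor oocytes are tied to an animal by the labels, so the p-values rest on differences between libraries, part of which may be technical.

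The granulosa pools held 470647 to 20537935 counts. The 3 wild-type pools at 2 months and knockout-labelled pools 1 and 3 at 2 months lay between 470647 and 749172, and the other 13 between 5995491 and 20537935. The oocytes held 3386039 to 8775154 counts, and the C57BL6 oocytes 3470831 to 11358927. Tet2 itself ranged from 8.27 to 21.5 CPM (counts scaled to a library total of 1000000) in the 9 knockout-labelled granulosa pools, against 4.56 to 16.7 CPM in the 9 wild-type pools, so these ranges overlap and the label is kept as a label. In the oocyte group sums Tet2 was at 0.961 to 1.399 CPM in the 5 knockout groups, against 2.36 to 3.19 CPM in the 5 wild-type groups, with no overlap. Counts outside a deleted part of the gene cannot check a knockout, and which part was deleted is not given in the labels. Markers of the labelled cell types were in place: the summed level of 10 granulosa markers was 1267 to 5641 CPM in the granulosa pools, and 13 oocyte markers summed to 15996 to 41475 CPM in the single oocytes. The 13 oocyte markers also summed to 123.2 to 314 CPM in the 2-month wild-type pools, and to 129 and 195 CPM in the shallow knockout-labelled pools 1 and 3 of that age, against 0.517 to 5.34 CPM in the other pools.

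Promoter letters are shown because ATF6 is known to reach its target genes through the ER stress element (ERSE), which it binds together with the CCAAT-binding factor NF-Y. The element was searched as CCAAT and CCACG with 9 bases of any kind between them, and its shorter variant ERSE-II as ATTGG and CCACG with 1 base between them, in the 300 bases from 250 before to 50 after the start of each member (RefSeq, GRCm38.p6). Both strands were searched and all 10 promoters were found. Capitals mark the fixed letters of each element, and every element is written in its own 5′ to 3′ direction.
Pdia6, chr12:17266491-17266509, plus strand: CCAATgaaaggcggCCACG
Hspa5, chr2:34772025-34772043, plus strand: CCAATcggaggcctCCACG
Hsp90b1, chr10:86705638-86705656, minus strand: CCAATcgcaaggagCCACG
Hsp90b1, chr10:86705533-86705551, plus strand: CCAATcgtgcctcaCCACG
Calr, chr8:84847075-84847093, plus strand: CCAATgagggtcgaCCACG
Herpud1, chr8:94386377-94386387, plus strand: ATTGGgCCACG
The full element stands in 4 of the 10 promoters, against 39 of 32851 promoters in the same table (0.119%), and in 2 copies at Hsp90b1, 1 on each strand. ERSE-II stands in 1 of the 10, at Herpud1, against 12 of 32851 (0.0365%). The parts alone are common: CCACG is in 8 of the 10 members and in 32.8% of all promoters, and CCAAT is in 9 of the 10 and in 37.4%; each ERSE match also counts as a match of both. Of 2 further motifs, TGACGTGG, the core bound by XBP1, is in 0 of the 10 (0.676% of all promoters), and TTGCATCA, the letters searched for the composite site of C/EBP factors and ATF4, is in 1 of the 10 (0.895%). These matches are descriptions of letters and not measured binding sites.

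The whole Hsp90b1 promoter window, chr10:86705395-86705694 on the minus strand, is printed because it alone holds 2 elements; capitals mark them, the first as written above and the second as its reverse complement.
Hsp90b1 promoter: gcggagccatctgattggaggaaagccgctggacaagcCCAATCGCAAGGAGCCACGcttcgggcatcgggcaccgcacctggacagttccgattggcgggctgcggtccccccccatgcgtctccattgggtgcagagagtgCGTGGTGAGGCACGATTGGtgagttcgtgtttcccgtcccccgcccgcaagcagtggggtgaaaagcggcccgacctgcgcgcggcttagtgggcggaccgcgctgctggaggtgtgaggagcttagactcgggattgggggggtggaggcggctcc

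All 10 genes were more abundant in granulosa pools than in oocytes. Counts were summed over the libraries of each of the 6 groups that exist for both cell types, and the matched group was a block in the fit. All 10 rose in granulosa cells, where 44.4% of the 24670 genes tested were called higher and 87.2% were called in either direction (edgeR quasi-likelihood test, Benjamini-Hochberg adjusted p under 0.05 over all genes). The median log2 difference of the 10 was 2.94, against 0.13 for all genes tested.

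Xbp1 differed most among the 10. It averaged 258 ± 41.6 CPM in the 6 granulosa sums and 0.375 ± 0.256 CPM in the 6 matched oocyte sums (SD), a log2 difference of 9.50 (SE 0.41, edgeR quasi-likelihood test with Benjamini-Hochberg adjustment, adjusted p = 6.29e-10). Herpud1 averaged 47.9 ± 7.84 CPM in granulosa sums and 0.489 ± 0.224 CPM in oocyte sums, a log2 difference of 6.67. Both genes were thus near the detection limit in oocytes: a single count was seen for Xbp1 in only part of them, 78 of 171, and for Herpud1 in 76 of 171.

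Ddit3 averaged 61.7 ± 18.8 CPM in granulosa sums and 3.26 ± 0.883 CPM in oocyte sums (log2 difference 4.23), and Dnajb9, a co-chaperone that stimulates the ATPase of HSPA5, 78.8 ± 18.4 and 5.92 ± 1.42 CPM in that order (3.74). Pdia4 averaged 579 ± 302 CPM in granulosa sums and 41.5 ± 5.76 CPM in oocyte sums (3.63). The large SD of Pdia4 in granulosa sums belongs to the differences between groups that are described further on. The other 5 had log2 differences between 1.72 and 2.25: Calr 2.25, Hspa5 2.00, Pdia6 1.92, Atf4 1.91 and Hsp90b1 1.72. These abundant chaperones, with Atf4, were present in all 171 oocytes, with oocyte means of 37.2 CPM for Atf4 up to 158 CPM for Hsp90b1.

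**Figure D1:**
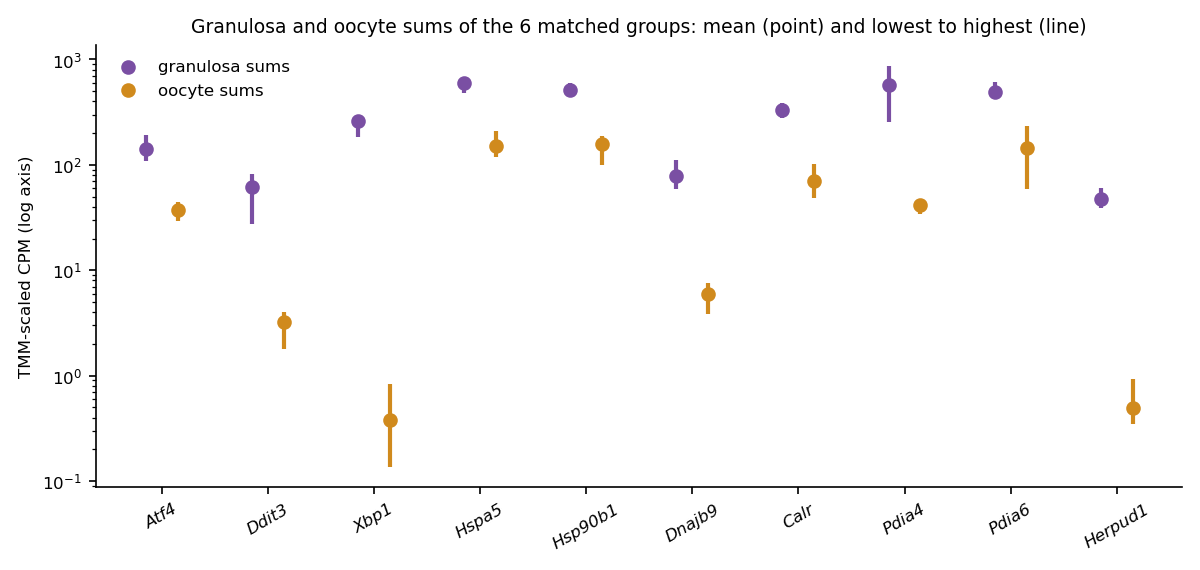
Level of each of the 10 genes in granulosa cells and in oocytes, on a log axis in CPM; points are the means of 6 matched group sums, and bars run from the lowest to the highest sum. The ranges are apart for every gene. On the log axis the means lie farthest apart for Xbp1 (258 against 0.375 CPM) and closest for Hsp90b1 (512 against 158 CPM). The ranges come closest for Pdia6 (lowest granulosa sum 453 CPM, highest oocyte sum 233 CPM).

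The other pathway lists were mixed. Of 6 sensor genes (the kinases and ATF6 proteins with the proteases that cut them), 0 were higher in granulosa cells and 4 were lower, with a median log2 difference of -2.001. Of 12 translocon genes 8 were higher and 3 lower (median 1.704), and of 12 cytosolic heat shock genes 6 were higher and 4 lower (0.81). Of 13 genes of the integrated stress response 6 were higher and 5 lower (0.65), of 16 other ER folding genes 8 were higher and 5 lower (0.39), and of 14 genes of ER-associated degradation 6 were higher and 6 lower (-0.08). Over all genes the median was 0.13 and 44.4% were called higher. Cell type goes together here with the time of collection and with the number of cells in a library, and these cannot be told apart.

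The 10 genes took 0.333 to 0.522% of all counts in a granulosa pool, 0.0215 to 0.128% in an oocyte and 0.0424 to 0.0899% in a C57BL6 oocyte. Per kilobase of exon, the order of median levels in granulosa pools was Pdia4 (323 CPM per kb), Hspa5 (193), Pdia6 (167), Hsp90b1 (166), Calr (152), Xbp1 (105), Atf4 (80.8), Ddit3 (49.4), Dnajb9 (37.4) and Herpud1 (27.1). Within it, the first 5 changed places often, since each stood above the next in 10 to 14 of 18 pools apart from Calr, which was above Xbp1 in 18 of 18. Further down, Ddit3 was above Dnajb9 in 11 of 18 pools. Per kilobase in the 10 oocyte sums, Pdia6 (37.0 CPM per kb), Hspa5 (29.2) and Hsp90b1 (28.1) came first and could not be ordered, as each stood above the next in 6 of 10 sums; Calr (18.5), Pdia4 (13.4), Atf4 (12.4), Dnajb9 (1.75), Ddit3 (1.496), Herpud1 (0.130) and Xbp1 (0.0772) followed. Pdia4 stood above Atf4 in 6 of 10 sums, Dnajb9 above Ddit3 in 6 of 10 and Herpud1 above Xbp1 in 7 of 10. Those neighbours therefore did not differ beyond their spread. HSPA5, the chaperone also called BiP, binds the sensors themselves in unstressed cells, and HSP90B1, or GRP94, takes over its partly folded clients. Calreticulin, the product of Calr, binds calcium and sugar-bearing proteins.

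In granulosa cells, the members called in a comparison of groups were a factor and an isomerase, Ddit3 and Pdia4. Over the 18 pools the highest value was 7.55 times the lowest for Pdia4 and 4.05 times for Ddit3, but 1.57 times for Hsp90b1 and 1.89 times for Pdia6, with the other 6, Hspa5 and Calr among them, between 2.098 and 2.805 times. Values below are CPM scaled by TMM factors, and all tests are edgeR quasi-likelihood tests over the same 17558 genes. The comparisons share groups, so they are not independent of each other. A pool mixes cells, and fewer cells of a type cannot be told apart from less RNA per cell.

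**Figure D2:**
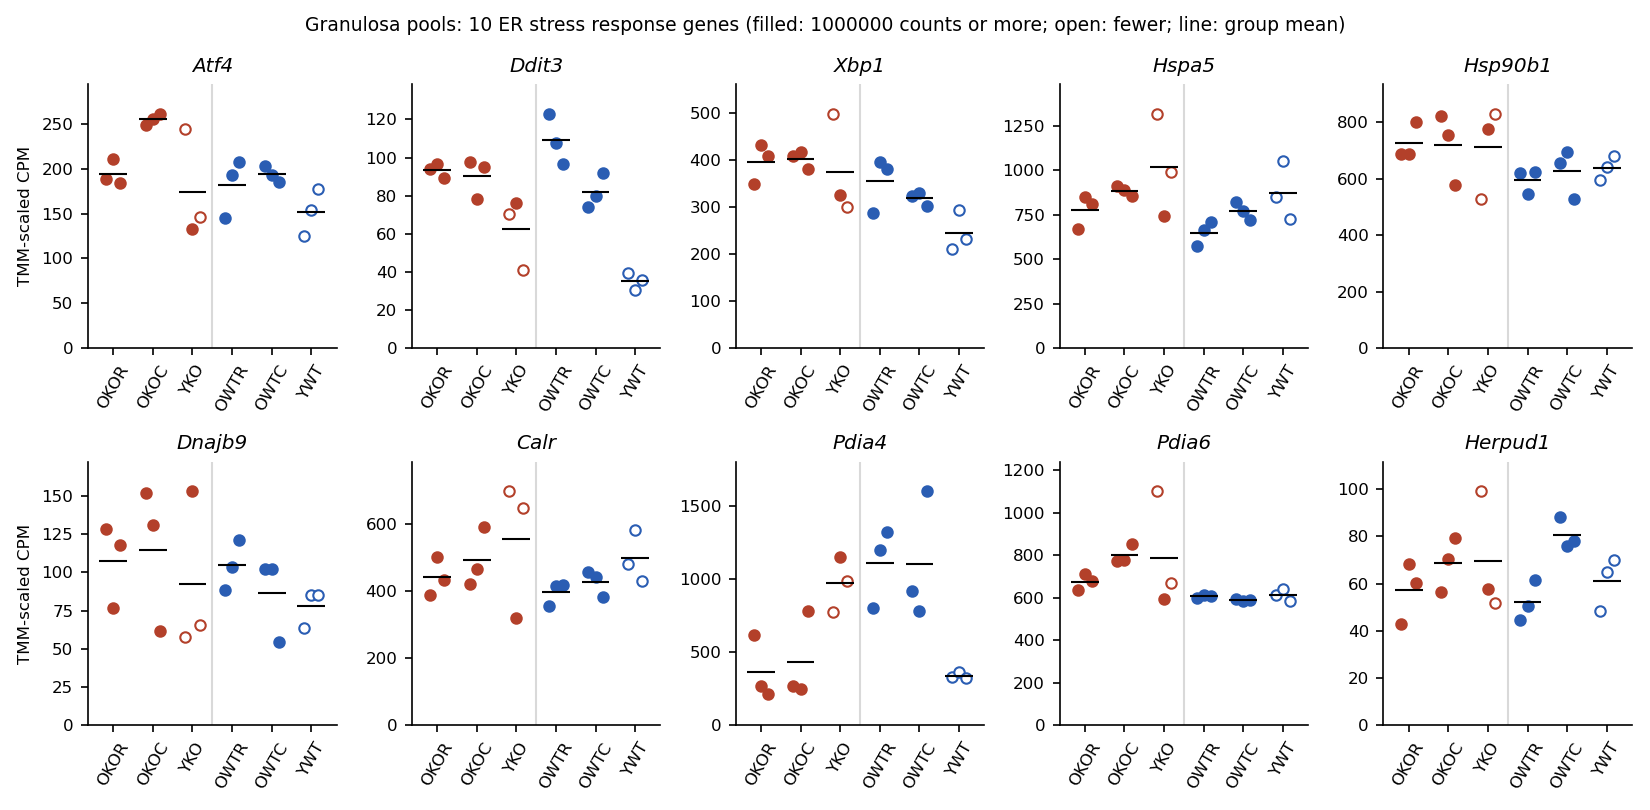
Level of the 10 genes in each of the 18 granulosa pools, in TMM-scaled CPM, with 1 panel per gene; points are pools, open points are pools under 1000000 counts, and lines are group means. Groups run from knockout-labelled (10-month resveratrol, 10-month control, 2-month) to wild type in the same order. Ddit3 is lowest in the 2-month wild-type pools (30.4 to 39.5 CPM) and Pdia4 runs from 212 to 1601 CPM.

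Between 10-month wild-type controls and 2-month wild-type mice, 2 of the 10 genes rose and 0 fell. Of all genes, 0.843% were called higher and 1.53% in either direction. Ddit3 stood at 74.1, 79.9 and 92.0 CPM in the 10-month pools, against 39.5, 30.4 and 36.0 CPM in the 2-month pools. Every 10-month pool lay above every 2-month pool, with a log2 difference of 1.21 (SE 0.24, adjusted p = 0.0106). Pdia4 stood at 919, 778 and 1601 CPM in the 10-month pools, against 330, 367 and 322 CPM in the 2-month pools. These ranges were apart too (log2 difference 1.697, SE 0.40, adjusted p = 0.0345), and the 10-month pools varied more than the 2-month ones.

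Atf4, Xbp1 and Herpud1 also had no overlap between these groups, with the 10-month pools above. Atf4 was at 204, 193 and 185 CPM in the 10-month pools, against 125, 154 and 178 CPM in the 2-month pools (log2 difference 0.36, adjusted p = 0.431). Xbp1 was at 323, 330 and 303 CPM in the 10-month pools, against 211, 294 and 233 CPM in the 2-month pools (0.38, adjusted p = 0.362). Herpud1 was at 88.0, 75.7 and 77.9 CPM in the 10-month pools, against 48.6, 64.8 and 70.04 CPM in the 2-month pools (0.41, adjusted p = 0.457). That makes 5 of 10 members without overlap in this direction, where 23.8% of all genes are, and 0 of 10 in the other, where 8.01% are; the 3 last named did not pass the test. The chaperones Hspa5, Hsp90b1, Calr and Dnajb9 and the isomerase Pdia6 had log2 differences from -0.22 to 0.15 with overlapping pools. The median of the 10 was 0.25, against 0.17 for all genes tested; with RLE size factors the median of all genes was 0.07, and with all libraries thinned to one depth it was 0.01.

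Among other genes of the pathway, 1 of 12 cytosolic heat shock genes passed in this comparison, Hspe1, the partner of the mitochondrial chaperonin (log2 difference 1.118, adjusted p = 0.0165), and none of the 6 sensor, 13 integrated stress response, 16 ER folding, 14 degradation and 12 translocon genes did. All 3 of the 2-month wild-type pools held under 1000000 counts, so age and depth cannot be told apart by leaving pools out; with all libraries at one depth Ddit3 differed by 1.15 (adjusted p = 0.0176) and Pdia4 by 1.52 (adjusted p = 0.00903). The 13 oocyte markers summed to 1.89 to 5.34 CPM in the 10-month pools and 123.2 to 314 CPM in the 2-month pools, which is 0.0123 to 0.0314% of the counts of the 2-month pools, and the 17 leukocyte markers to 171 to 209 CPM and 103 to 130 CPM in that order, with 9 of the 17 at 0 in all 2-month pools; their part in the result was not tested. Ddit3 did not pass without 2-month pool 2 (adjusted p = 0.0754), without 2-month pool 3 (adjusted p = 0.0726) or without 10-month pool 3 (adjusted p = 0.0542). Pdia4 passed only when 10-month pool 2 was the pool left out, and its log2 difference was 1.31 without 10-month pool 3 (adjusted p = 0.149).

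In the knockout-labelled pools, none of the 10 passed between 10-month controls and 2-month mice, against 5.17% of all genes; 3 members had an unadjusted p under 0.05, and DESeq2 called 0. Atf4 was at 249, 256 and 261 CPM in the 10-month pools, against 244, 133 and 146 CPM in the 2-month pools (log2 difference 0.57, adjusted p = 0.118). Ddit3 was at 97.6, 78.5 and 95.1 CPM in the 10-month pools, against 70.3, 76.0 and 41.0 CPM in the 2-month pools (0.49, adjusted p = 0.173). For both genes every 10-month pool lay above every 2-month pool, as is so for 15.4% of all genes, and no member lay below without overlap, as 3.76% of genes did, though the 2-month pool nearest to them was close behind. Pdia4 ran the other way, at 268, 248 and 781 CPM in the 10-month pools, against 772, 1153 and 990 CPM in the 2-month pools (-1.17, adjusted p = 0.0794). The pools overlapped through 10-month pool 3, which stood well above the other 2 pools of its group. Without that pool the difference was -1.95 (adjusted p = 0.00267), the most favourable of the 6 leave-outs of 1 pool. Over them the difference ran from -1.95 to -0.92, and the adjusted p by the edgeR quasi-likelihood test from 0.00267 to 0.288.

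The age difference of Pdia4 therefore took opposite directions under the 2 labels, and the test of that difference passed: the log2 age difference was lower by 2.87 in knockout-labelled pools (interaction term -2.87, SE 0.55, adjusted p = 0.0260), and 0.137% of all genes passed it. No other member passed; the term for Ddit3 was -0.72 (adjusted p = 0.602). The Pdia4 term lay between -3.70 and -2.51 when 1 pool was left out, but failed the threshold in 7 of the 12 leave-outs, those of 2-month wild-type pools 1, 2 and 3, 10-month wild-type pool 3, 2-month knockout-labelled pool 2 and 10-month knockout-labelled pools 1 and 2.

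Among the pathway lists, the age comparison of knockout-labelled pools called 2 of 13 integrated stress response genes higher, the factors Atf3 (log2 difference 2.29, adjusted p = 0.0185) and Cebpb (1.82, adjusted p = 0.0376). Both factors work with ATF4 and also respond to inflammatory signals. It also called 2 of 12 translocon genes higher, Sec61g (1.29) and Spcs1 (0.83), and Hspe1 among the 12 heat shock genes (1.15), and none of the pathway lists held a gene called lower. In the same comparison 8 of 17 leukocyte markers and 8 of the 10 B and plasma cell markers tested were higher, and the summed leukocyte level was 1485 to 1857 CPM in the 10-month pools and 92.8 to 931 CPM in the 2-month pools; its part in the result was not tested.

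Resveratrol in 10-month wild-type mice changed none of the 10 genes past the threshold, against 1.62% of all genes (2 members at an unadjusted p under 0.05; DESeq2 called 1). Herpud1 was at 44.4, 50.5 and 61.6 CPM in resveratrol pools, against 88.0, 75.7 and 77.9 CPM in control pools. All resveratrol pools were below all control pools, and the log2 difference was -0.63 (SE 0.23, adjusted p = 0.147; DESeq2 adjusted p = 0.0499). Ddit3 was at 123, 108 and 96.7 CPM in resveratrol pools, against 74.1, 79.9 and 92.0 CPM in control pools (0.41, adjusted p = 0.277), again without overlap. In all, Ddit3 and Pdia6 lay above without overlap, as did 17.6% of all genes, and Herpud1 and Hspa5 below; 30.5% of all genes lay apart in either direction. Pdia4 was at 802, 1195 and 1323 CPM in resveratrol pools and 919, 778 and 1601 CPM in control pools, a log2 difference of 0.0098. Of the pathway lists, 2 of 12 translocon genes passed, Ssr4 (0.81, adjusted p = 0.0323) and Sec61b (0.90, adjusted p = 0.0491), both higher on resveratrol. In the same comparison 7 of 17 leukocyte markers were called higher, with sums of 286 to 436 CPM in resveratrol pools and 171 to 209 CPM in control pools. Of the 10 B and plasma cell markers tested 3 were called lower, with a median log2 difference of -2.45. The part of such cells in these results was not tested.

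In 10-month knockout-labelled mice, resveratrol called none of the 10, against 0.0285% of all genes, with 0 members at an unadjusted p under 0.05 and 0 called by DESeq2. Atf4 was at 188, 211 and 184 CPM in resveratrol pools, against 249, 256 and 261 CPM in control pools (log2 difference -0.39, unadjusted p = 0.0644 by the edgeR quasi-likelihood test). Atf4, Pdia6 and Hspa5 lay below without overlap, as did 5.31% of all genes, and 0 members lay above, where 4.98% did. The 17 leukocyte markers moved with these groups, at 474 to 991 CPM on resveratrol and 1485 to 1857 CPM in controls, and their part was not tested. No member passed the test of whether the resveratrol difference depends on the label, against 0.159% of all genes; 0 members had an unadjusted p under 0.05, and DESeq2 called 0.

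The knockout label itself was compared 3 times in granulosa pools. In 2-month mice none of the 10 passed (0.114% of all genes did; 3 members at an unadjusted p under 0.05, 0 by DESeq2), although all 10 log2 differences were above 0, with a median of 0.28 against 0.12 for all genes. Pdia4 stood at 772, 1153 and 990 CPM in knockout-labelled pools, against 330, 367 and 322 CPM in wild-type pools, a log2 difference of 1.52 (SE 0.40, adjusted p = 0.156). Ddit3 stood at 70.3, 76.0 and 41.0 CPM in knockout-labelled pools, against 39.5, 30.4 and 36.0 CPM in wild-type pools (0.86, adjusted p = 0.222). With Xbp1 these are the 3 members whose pools were apart, as 5.47% of all genes were, always with the knockout-labelled pools above, and 0 lay below, where 3.58% did; 5 of the 6 pools held under 1000000 counts.

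In 10-month controls none of the 10 passed between the labels, against 3.86% of all genes (2 members at an unadjusted p under 0.05, 0 by DESeq2). Pdia4 was at 268, 248 and 781 CPM in knockout-labelled pools, against 919, 778 and 1601 CPM in wild-type pools. Knockout-labelled pool 3 reached the lowest wild-type pool, and the difference of -1.35 had an adjusted p of 0.0505. Without that knockout-labelled pool it was -2.16 and passed the edgeR quasi-likelihood test, the most favourable of the 6 leave-outs of 1 pool. Over them the difference ran from -2.16 to -0.99, and the adjusted p by the same test from 0.00117 to 0.234. Pdia6 was at 772, 778 and 854 CPM in knockout-labelled pools, against 595, 583 and 588 CPM in wild-type pools (0.45, adjusted p = 0.186), among the tightest groups of values of any member. Atf4, Xbp1, Pdia6 and Hspa5 lay higher without overlap, as did 16.7% of all genes, and 0 members lay lower, where 11.1% did.

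Among the comparisons of granulosa groups this one had the most pathway genes called, 8. Of 16 ER folding genes 2 rose in knockout-labelled 10-month controls, Manf, a secreted protein that ER stress induces (log2 difference 1.103, adjusted p = 0.00870), and Ppib, a prolyl isomerase (0.73, adjusted p = 0.0221). Of 12 translocon genes 6 rose, by 0.68 to 1.01: Sec61g, Sec61b, Ssr2, Ssr4, Spcs1 and Spcs2, subunits of the channel, its associated complex and the signal peptidase, through which secretory proteins enter the ER. No pathway list had a gene called lower. The leukocyte markers summed to 1485 to 1857 CPM in knockout-labelled pools and 171 to 209 CPM in wild-type pools. Of the 10 B and plasma cell markers tested 4 were called higher, and Igkc had a mean of 107 CPM and 27.1 CPM in that order. The sums of the B and plasma cell list overlapped, at 3040 to 4709 CPM in knockout-labelled pools and 3408 to 3876 CPM in wild-type pools. The part of such cells in the result was not tested.

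On resveratrol at 10 months 1 of the 10 genes fell in knockout-labelled pools, Pdia4, where 0.427% of all genes were called lower and 1.07% in either direction. It was at 619, 272 and 212 CPM in knockout-labelled pools, against 802, 1195 and 1323 CPM in wild-type pools. The ranges were apart although knockout-labelled pool 1 stood above the other 2, and the log2 difference was -1.59 (SE 0.39, edgeR quasi-likelihood test with Benjamini-Hochberg adjustment, adjusted p = 0.0442). DESeq2 gave an adjusted p of 0.0720. By the edgeR quasi-likelihood test the adjusted p was 0.0744 without the pools under 1000000 counts, which are all of other groups, and 0.0628 with the pool number as a replicate block. Leaving out 1 pool gave -2.19 to -1.31, with the threshold missed without wild-type pool 2 or 3 or knockout-labelled pool 2 or 3. Ddit3 was at 93.9, 96.7 and 89.2 CPM in knockout-labelled pools, against 123, 108 and 96.7 CPM in wild-type pools; Pdia6 and Hsp90b1 lay higher without overlap (10.5% of all genes did) and Ddit3 and Pdia4 lower (8.65%). In this comparison 7 of the 10 B and plasma cell markers tested were called higher (median log2 difference 3.98), as were 2 of 17 leukocyte markers, whose sums were 474 to 991 CPM in knockout-labelled pools and 286 to 436 CPM in wild-type pools. Of the 5 luteal markers Ptgfr and Lhcgr were called lower, and the 5 summed to 4150 to 5283 CPM in knockout-labelled pools and 6983 to 7826 CPM in wild-type pools. The part of such cells in the Pdia4 result was not tested.

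Across all comparisons, Pdia4 was the member set apart most by label and age. Its pools were high, between 772 and 1601 CPM, in 2-month knockout-labelled mice and in both 10-month wild-type groups. They were low in 2-month wild-type mice (322 to 367 CPM) and in 4 of the 6 pools of 10-month knockout-labelled mice (212 to 272 CPM). In those mice, control pool 3 stood at 781 CPM, inside the high range, and resveratrol pool 1 at 619 CPM. The other 9 members did not share the pattern of Pdia4. Over 45 pairs of members the median Pearson correlation of log CPM across the 18 pools was 0.0878, and within groups of single oocytes it was 0.107; the pools share 6 groups and unequal depth.

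The genes most like Pdia4 in the 18 pools, chosen after its values were seen, were Mir704 (Pearson r = 0.976), Zfp398 (0.884), Cops7a (0.797), Retsat (0.793) and Atp6v0e2 (0.772) among 8728 genes averaging 10 CPM or more. Mir704 lies inside Pdia4 on the same strand and its counts cannot be told apart from those of Pdia4. All 5 lie on chromosome 6, as does Pdia4 at chr6:47796141-47813430 (GENCODE vM21, GRCm38), with Zfp398 at 47835661 to 47873537 next to it and Atp6v0e2 at 48537615 to 48541801. Cops7a, at 124958413 to 124965538, and Retsat, at 72598475 to 72608425, lie much farther away. The other 8 neighbours within 1 Mb had lower values, between -0.480 for Repin1 and 0.426 for Zfp467. These are descriptions over 18 pools.

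In oocytes, the 10 genes were compared over 10 group sums of counts, with age, genotype and treatment in 1 additive model, because oocytes of 1 group cannot be shown to come from different animals. All 10 members were higher in knockout than in wild-type oocytes on average, but 0 of the 10 passed, against 0.139% of 20806 genes tested (edgeR quasi-likelihood test, Benjamini-Hochberg adjusted p under 0.05; 3 members at an unadjusted p under 0.05). DESeq2 called 2. The median log2 difference of the 10 was 0.39, against 0.02 for all genes. The other pathway lists were mixed in this contrast. Above 0 were 1 of 6 sensor genes (median -0.17), 3 of 14 degradation genes (-0.18) and 7 of 16 ER folding genes (-0.0027). So were 7 of 13 integrated stress response genes (0.15), 11 of 12 translocon genes (0.12) and 8 of 11 cytosolic heat shock genes tested (0.21). Some lists of somatic markers had differences of the same sign in this contrast, with 0 markers called. Above 0 were 5 of 5 luteal markers (median 1.04), 14 of 17 leukocyte markers (0.83) and 5 of the 7 granulosa markers tested (2.58). Of the other lists, 2 of 2 theca and stroma markers tested (0.34) were above 0. Only 2 of 6 B and plasma cell markers (-0.22) and 0 of 3 endothelium markers (-0.28) were. The group medians of the summed luteal markers were 1.85 to 36.4 CPM in knockout and 1.49 to 3.86 CPM in wild-type groups. For the leukocyte markers these medians were 22.9 to 32.1 CPM in knockout and 20.02 to 29.9 CPM in wild-type groups. For the 10 granulosa markers they were 40.6 to 109 CPM in knockout and 44.3 to 70.3 CPM in wild-type groups, with Cyp19a1 the largest part in every group. The part of somatic transcripts in the members' differences was not tested.

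Hsp90b1 stood at 121 CPM in knockout and 74.4 CPM in wild-type oocytes at 2 months. At 6 months it was at 104 CPM in knockout and 87.7 CPM in wild-type oocytes on resveratrol, and at 130 CPM in knockout and 91.9 CPM in wild-type controls. At 10 months it was at 151 CPM in knockout and 125 CPM in wild-type oocytes on resveratrol, and at 147 CPM in knockout and 106 CPM in wild-type controls. The knockout sum was the higher one in 5 of 5 matched pairs, as it was for 5.63% of 13155 genes at 1 CPM or more, while no member was lower in all 5, as 9.02% of those genes were. The means were 131 ± 19.3 CPM in knockout and 97.1 ± 19.3 CPM in wild-type sums (SD, n = 5 sums each). The log2 difference was 0.44 (SE 0.11, adjusted p = 0.157 by edgeR and 0.0495 by DESeq2). Without the 2-month wild-type sum, whose labels contradict each other, it was 0.35 (adjusted p = 0.233 by edgeR), and 0 members passed.

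Pdia6 was higher in 4 of 5 pairs, with 162 ± 24.8 CPM in knockout and 89.7 ± 52.2 CPM in wild-type sums (log2 difference 0.95, SE 0.29, adjusted p = 0.216 by edgeR and 0.0152 by DESeq2). The sums were 144 CPM in knockout and 91.9 CPM in wild-type oocytes at 2 months, 161 and 178 CPM on resveratrol and 192 and 68.5 CPM in controls at 6 months, and 133 and 46.3 CPM on resveratrol and 182 and 63.4 CPM in controls at 10 months, with the knockout value before the wild-type value in each pair. The exception is the 6-month wild-type resveratrol group, and its high sum comes from part of its oocytes. The column names of this group hold a leading number that the labels do not explain. The 9 oocytes with number 1 had 56.2 to 96.3 CPM, and 4 with number 2 had 253 to 423 CPM. In 1 more oocyte, at 334 CPM, the name lacks the point after the leading number, and that number was not read. Without that group's sum the log2 difference was 1.32 (edgeR quasi-likelihood test with Benjamini-Hochberg adjustment, adjusted p = 0.0443). That was the most favourable of the 10 leave-outs of 1 sum. Over them the difference ran from 0.76 to 1.32, and the adjusted p by the same test from 0.0443 to 0.443. A split by leading number was seen in other groups as well. In 2-month knockout oocytes, the 5 with number 1 had 3.26 to 104 CPM and the 10 with number 2 had 96.9 to 270 CPM.

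**Figure D3:**
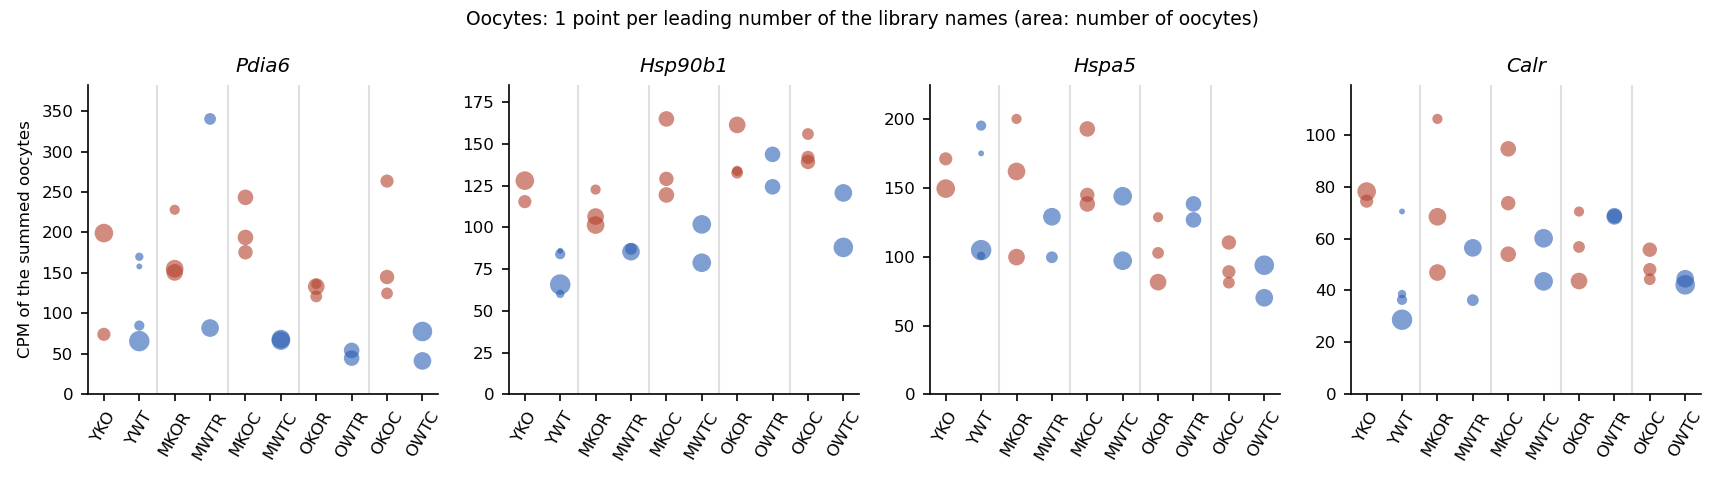
Level of Pdia6, Hsp90b1, Hspa5 and Calr in oocytes, in CPM, with 1 point for each leading number in the column names of a group and the point area growing with the number of oocytes summed; knockout groups stand left of the matched wild-type groups, from 2 to 6 to 10 months. The Pdia6 points of the 6-month wild-type resveratrol group are far apart, and those of Hsp90b1 are close together in most groups. The 1 oocyte whose leading number was not read is not drawn.

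Dnajb9 was higher in the knockout sum in 5 of 5 pairs, with means of 5.06 ± 0.642 CPM in knockout and 3.65 ± 1.098 CPM in wild-type sums (log2 difference 0.51, adjusted p = 0.241). Calr averaged 62.7 ± 10.5 CPM in knockout and 49.6 ± 10.4 CPM in wild-type sums (0.34, adjusted p = 0.453), and was higher in 4 of 5 pairs, as were Atf4, Pdia4, Hspa5 and Herpud1; 23.2% of genes at 1 CPM or more were higher in 4 or 5 pairs. Xbp1 was higher in 2 of 5 pairs. Ddit3 was higher in 3 of 5 pairs, at 2.62 ± 0.467 CPM in knockout and 2.28 ± 0.671 CPM in wild-type sums. None of the other pathway genes passed in the oocyte comparisons of age, genotype and treatment. In these pairs the median log2 difference of the members ran from 0.07 in 10-month resveratrol oocytes to 0.54 in 6-month controls, with medians of all genes over 5 CPM between -0.10 and 0.03.

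Age moved no member past the threshold in oocytes. At 10 against 2 months 0 of 10 passed, against 0.00481% of all genes (3 members at an unadjusted p under 0.05, 0 by DESeq2). Hspa5 had a log2 difference of -0.56 (SE 0.18, edgeR quasi-likelihood adjusted p = 0.246), Hsp90b1 of 0.48 (SE 0.17, adjusted p = 0.275) and Dnajb9 of 0.68 (SE 0.24, adjusted p = 0.275). The Hspa5 sums were 156 CPM in knockout and 133 CPM in wild-type oocytes at 2 months, then 138 and 120 CPM on resveratrol and 150 and 122.8 CPM in controls at 6 months, then 98.7 and 124 CPM on resveratrol and 97.0 and 86.1 CPM in controls at 10 months, with the knockout value first. So 3 of the 4 sums at 10 months were below every sum of the younger ages, and the wild-type resveratrol sum was not. At 6 against 2 months 0 of 10 passed, against 0% of all genes (0 members at an unadjusted p under 0.05, 0 by DESeq2), and at 10 against 6 months 0 of 10 passed, against 0.00481% (2 members at an unadjusted p under 0.05, 0 by DESeq2).

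Hsp90b1 and Hspa5 had age differences of opposite sign on the same sums. Both passed when the oocytes were summed by the unexplained leading number into 26 sums, a choice made after the data were seen. These 26 sums leave out the 1 oocyte whose leading number was not read. By the edgeR quasi-likelihood test Hsp90b1 then differed by 0.49 (adjusted p = 0.00945) and Hspa5 by -0.70 (adjusted p = 0.00951) between 10 and 2 months, and Hsp90b1 by 0.41 between knockout and wild type (adjusted p = 0.00357). If those numbers do not mark separate animals or days, these p-values are too small. Resveratrol called 0 of the 10 in oocytes, and so did its interaction with genotype, against 0% of all genes in both tests, with 0 members at an unadjusted p under 0.05 and 0 called by DESeq2 in each.

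Xbp1, near 0 in most oocytes, stood higher in both 6-month knockout groups. Its sum was 2.96 CPM in 6-month knockout oocytes on resveratrol and 7.71 CPM in 6-month knockout controls, against 0.0666 and 0.0806 CPM in the wild-type resveratrol and control oocytes of that age, and the other 6 sums lay between 0.109 and 0.604 CPM. Single oocytes ranged from 0 to 12.4 CPM with a median of 1.204 CPM in the knockout resveratrol group, and from 0 to 25.9 CPM with a median of 7.16 CPM in the knockout controls, against 0 to 0.668 CPM with a median of 0 in the wild-type controls. Over 2 CPM were 9 of 20 knockout oocytes on resveratrol and 15 of 20 knockout controls at 6 months, and 2 of the 131 oocytes of the other 8 groups. The genotype term over all ages was 1.38 with an SE of 1.38 (adjusted p = 0.718 by the edgeR quasi-likelihood test), and no term for 1 age alone was fitted.

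Transcripts of ovarian somatic cells moved with Xbp1. The 5 luteal markers summed to a median of 3.601 CPM (0.605 to 57.2) in 6-month knockout oocytes on resveratrol and 36.4 CPM (1.24 to 322) in 6-month knockout controls, against group medians of 1.49 to 3.86 CPM in the other 8 groups. The 10 granulosa markers had medians of 70.4 and 109 CPM in the same 2 knockout groups, and 40.6 to 70.3 CPM in the others. Cyp19a1 made the largest part of that level in every group, at 30.9 to 59.9 CPM in the group sums. Inha was at 6.47 CPM in the knockout resveratrol sum and 27.5 CPM in the knockout control sum, and at 0 to 0.876 CPM in the other 8. Over these 40 oocytes the Pearson correlation of log2(CPM + 1) of Xbp1 was 0.748 with the luteal markers, 0.454 with the granulosa markers, 0.379 with the leukocyte markers and 0.572 with Herpud1, a description over oocytes of 2 groups that share their preparation. Herpud1 likewise had its highest sum, 1.48 CPM, in the 6-month knockout controls, and 0.0499 to 0.715 CPM in the other 9 groups. In granulosa pools, where the 5 luteal markers summed to 3087 to 10285 CPM, Xbp1 was at 211 to 499 CPM. In the shallow knockout-labelled pool 3 at 2 months, 1 of the 5 luteal markers was at 0. The part of such cells in the Xbp1 values was not tested.

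**Figure D4:**
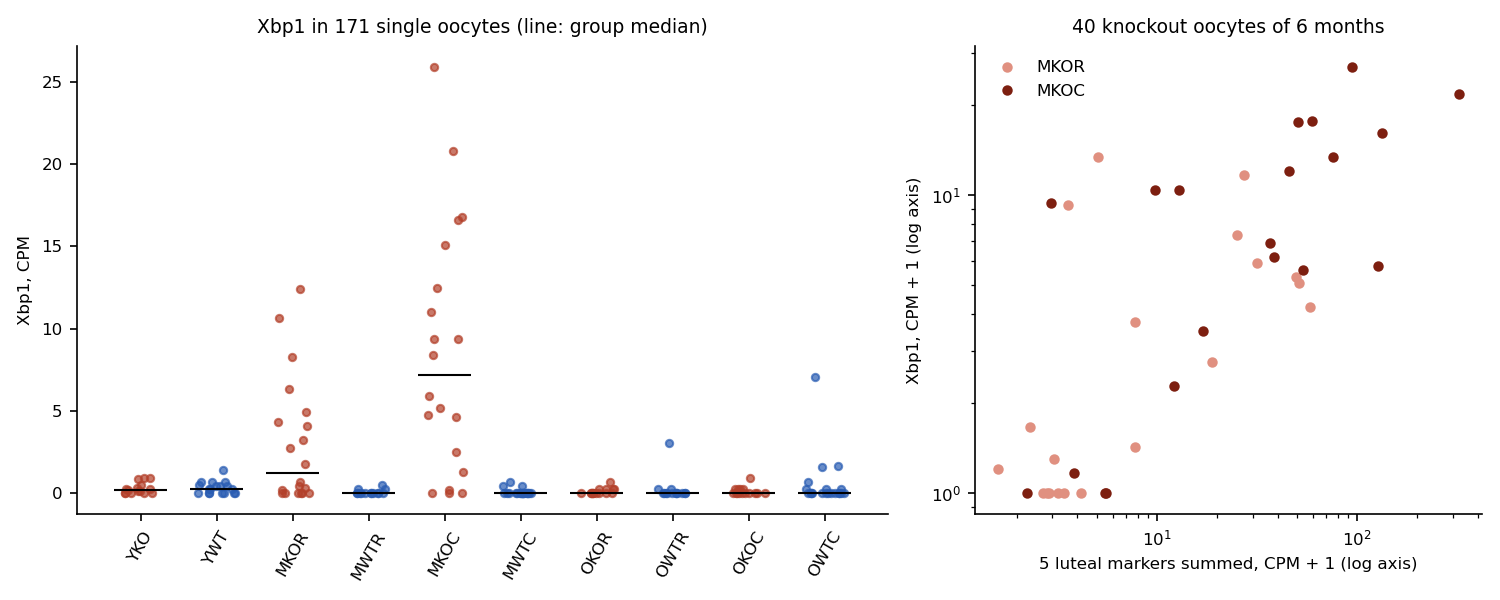
Left, Xbp1 level in each of 171 single oocytes by group, in CPM, with the line at the group median; right, Xbp1 against the summed level of 5 luteal markers in the 40 knockout oocytes at 6 months, both in CPM plus 1 on log axes. The 2 knockout groups at 6 months hold 24 of the 26 oocytes over 2 CPM, and oocytes with more luteal transcripts tended to have more Xbp1 (Pearson r = 0.748).

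In C57BL6 oocytes each group is 1 sum with no named animals, so ratios are given with exact 95% intervals that cover counting error only, and there is no test. Between 10-month and 6-month controls, Calr, Ddit3 and Hspa5 were higher by more than 1 on the log2 scale, as were 6.09% of 7048 genes at 10 CPM or more, though Ddit3 itself lies below that level. No member was lower by that much, as 1.93% of those genes were, and the oocytes of the 2 ages stood apart for 1 of the 10 members, as for 9.21% of those genes in either direction. Calr was at 74.7 CPM in the 10-month sum, against 28.9 CPM in the 6-month sum. Single oocytes ranged from 63.0 to 87.6 CPM with a median of 72.9 CPM at 10 months, against 23.0 to 39.6 CPM with a median of 28.5 CPM at 6 months. Every one of the 6 oocytes at 10 months was above each of the 11 at 6 months, as was so for 5.51% of those genes, and the log2 ratio was 1.37 (1.28 to 1.47).

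Hspa5 was at 130 CPM in the 10-month sum, against 64.0 CPM in the 6-month sum (log2 ratio 1.02, 0.96 to 1.09), with single oocytes at 70.1 to 163 CPM with a median of 130 CPM, against 42.6 to 132 CPM with a median of 61.4 CPM. Ddit3 was at 4.56 and 2.06 CPM in that order (1.14, 0.78 to 1.53), and Atf4 at 33.3 and 23.9 CPM (0.48, 0.37 to 0.60). The oocytes of the 2 ages overlapped for these 3 genes. Hsp90b1 (0.16, 0.11 to 0.21), Pdia4 (-0.23, -0.35 to -0.11) and Pdia6 (-0.29, -0.33 to -0.24) had smaller ratios whose intervals also leave out 0, and Dnajb9 had one of 0.00 (-0.38 to 0.38). With TMM factors the ratios were lower: Calr 1.26, Ddit3 1.03, Hspa5 0.91, Atf4 0.37, Hsp90b1 0.05, Pdia4 -0.34 and Pdia6 -0.40. Those of Calr, Hspa5, Hsp90b1 and Pdia6 then lay outside the intervals given here, and Hspa5 was below 1. Xbp1 (6 and 12 counts) and Herpud1 (9 and 13 counts) were too low to compare. The median over the 10 was 0.08, against 0.02 for the genes at 10 CPM or more. In the C57BL6/129 oocytes the same age step, over both genotypes and treatments, gave Hspa5 a log2 difference of -0.39 and Calr one of -0.14. In their wild-type controls alone, the Hspa5 sum was 86.1 CPM at 10 months and 122.8 CPM at 6 months. The Calr sum was 44.7 and 52.7 CPM in that order. The strains were not tested against each other.

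On resveratrol, most of the 10 genes were close to the controls in 10-month C57BL6 oocytes. Xbp1 and Herpud1 were past 1 on the log2 scale, in opposite directions and on few counts, and the other 8 were not; of the genes at 10 CPM or more, which these 2 are below, 0.639% were higher by that much and 0.153% lower. Atf4 was at 47.3 CPM on resveratrol, against 33.3 CPM in controls (log2 ratio 0.50, 0.41 to 0.60), with single oocytes at 22.7 to 98.3 CPM with a median of 41.0 CPM, against 16.1 to 44.2 CPM with a median of 30.3 CPM. These ranges overlapped, as did those of the other 9 members, where 0.305% of genes were higher and 0.153% lower without overlap. Hspa5, Pdia6, Ddit3, Pdia4, Hsp90b1 and Calr had log2 ratios between -0.11 and 0.09, and Dnajb9 one of 0.34. Xbp1 had 31 counts in 4 of 10 resveratrol oocytes, against 6 counts in 3 of 6 control oocytes, a log2 ratio of 1.63 with an interval from 0.44 to 3.28. As a difference of median log2(CPM + 1) over oocytes it was -0.11. Herpud1 had 3 counts on resveratrol, against 9 in controls, a log2 ratio of -2.09 with an interval from -4.75 to -0.23. The median over the 10 was 0.08, against -0.02 for 7202 genes at 10 CPM or more.

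**Figure D5:**
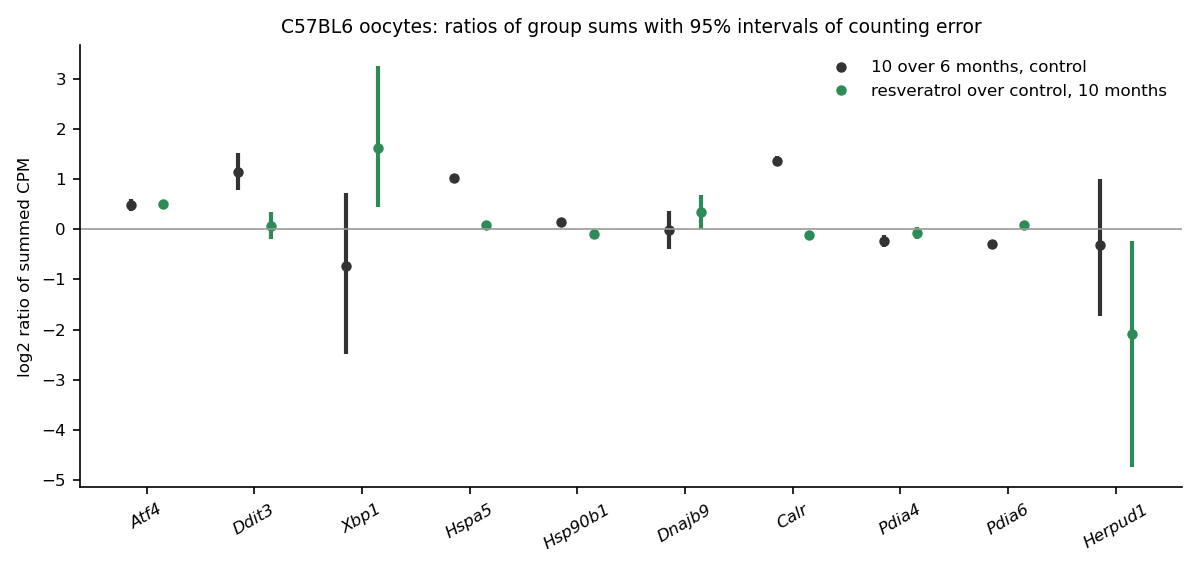
Log2 ratios of the 10 genes in C57BL6 oocytes, 10 against 6 months in controls and resveratrol against control at 10 months, with exact 95% intervals for counting error. With age Calr (1.37), Ddit3 (1.14) and Hspa5 (1.02) stand highest, Atf4 and Hsp90b1 also lie above 0 and Pdia4 and Pdia6 below it, and the intervals of Xbp1 and Herpud1 are wide.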

How the data were processed

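Per the labels, total RNA was made into Smart-seq2 libraries and sequenced as paired reads. The authors deposited raw counts per gene symbol; HISAT2 2.1.0, featureCounts, DESeq2 and mm10 appear in the submitters' processing notes, without roles, and no source used here says whether strand was counted. For overlapping genes, reads therefore cannot be told apart (Ddit3 and Mars, Pdia4 and Mir704, Pdia6 and Atp6v1c2, Hsp90b1 and Gm25745, Dnajb9 and Mir5627). From the counts, edgeR 4.0.16 (R 4.3.3) scaled by TMM, kept genes by filterByExpr with a minimum of 10 and ran quasi-likelihood tests, adjusted by Benjamini-Hochberg over all genes and called under 0.05. Granulosa pools were fitted in 1 model with 12 residual degrees of freedom; oocytes were summed per group because no animal is named, with 5 residual degrees of freedom. All 10 members passed the filter. Levels per kilobase use exon lengths of GENCODE vM21, which matched 28471 of 53619 symbols. Alternatives were RLE size factors, DESeq2 1.42.0, no filter, 1 depth, only the groups compared, a replicate block and leaving out each library or sum. All 10 members are named throughout; the other pathway genes named are those called. The members and lists were chosen with earlier results of these data known. The statistics were tested on simulated data.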

Additional observations from a re-analysis of the deposited data

Results flagged for a closer look

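The age difference of Pdia4 differed between the knockout-labelled and wild-type granulosa pools (log2 interaction term -2.87, edgeR quasi-likelihood test, Benjamini-Hochberg adjusted p = 0.0260); the pool values are given above.

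In 4 of 20 combinations of a C57BL6 group with a member, 1 oocyte stood apart from the rest of its group. The usual rate of about 1 in 20 groups by chance does not apply, since these genes had 3 to 31 counts in a whole group. In the 10-month resveratrol group they are Xbp1 at 3.51 CPM and Herpud1 at 0.479 CPM in 1 oocyte each. In the 10-month controls they are Xbp1 at 0.785 CPM and Herpud1 at 1.42 CPM in 1 oocyte each. Xbp1 had counts in 4 of 10 resveratrol and 3 of 6 control oocytes, and Herpud1 in 1 of 10 and 2 of 6. Herpud1 was at 0 in the other 9 oocytes of the resveratrol group.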

How the results depend on the processing

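Under other settings 978 recomputed values stayed on their side of the threshold or, for C57BL6 ratios, inside the interval of counting error. Of the others 20 passed newly, 3 no longer passed, 8 C57BL6 ratios moved out of the interval and 1 reversed. With 1 library or sum left out 1296 stayed on their side, 5 passed newly and 19 no longer passed. Values called in neither fit were counted as staying whatever their sign, and some changed sign. Calr at 10 against 2 months in oocytes, for example, ran from -0.50 to 0.43 with 1 sum left out. Between 10-month and 2-month wild-type granulosa pools, 2 members passed, and 0 to 2 did when a pool was left out. Between the same ages in knockout-labelled pools 0 passed, but 1 did without the filter on low counts (Pdia4), without the pools under 1000000 counts (Atf4) and at one depth (Pdia4), and 0 to 1 did when a pool was left out. For the label in 10-month controls 0 passed, but 1 did with RLE size factors, without the filter, at one depth (each Pdia4) and without the pools under 1000000 counts (Pdia6), and 0 to 1 when a pool was left out. For the label on resveratrol 1 passed, but 0 did with DESeq2 and without the pools under 1000000 counts, and 0 to 1 when a pool was left out. For the label at 2 months 0 passed, but 1 did without the filter and with only the groups compared (each Pdia4), and 0 to 1 when a pool was left out. For the age difference by label 1 passed, and 0 to 1 did when a pool was left out. For resveratrol in wild-type pools 0 passed, but 1 did with DESeq2 and with only the groups compared (each Herpud1). The cause was not tested in any of these.

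In oocytes, knockout against wild type called 0 members, but 2 with DESeq2, 0 to 1 when a sum was left out and 1 with 1 sum per leading number; the same sums called 2 at 10 against 2 months and 3 at 10 against 6 months, where the group sums called 0. For Xbp1 on resveratrol in C57BL6 oocytes, the log2 ratio of 1.63 turned to -0.11 as a difference of median log2(CPM + 1), since under the sum the counts of few oocytes decide it.

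Pool numbers shared between granulosa groups did not pair the pools: same-numbered pools correlated between -0.101 and 0.141, and 0 of 7 comparisons had every pair over 0.1. With the replicate block, 1 member (Pdia4) passed for the label in 10-month controls, where 0 did without it, 0 passed for the label on resveratrol, where 1 did without it, and the Pdia4 age difference by label was -2.91. In oocytes, with matched age and treatment as a block, 0 members passed for the genotype and 0 for resveratrol, as without it; the leading numbers of the column names were not used as a block, because the labels do not explain them.

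Pools under 1000000 counts limit all comparisons with 2-month granulosa cells, and the low counts of Xbp1, Herpud1 and Ddit3 limit those in oocytes.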
